A study of Mus musculus with 2 samples.

Results

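The Sox genes encode transcription factors that share a DNA-binding domain, the HMG box, with the testis-determining factor SRY. The 10 genes described here, Sox1, Sox2, Sox3, Sox4, Sox5, Sox6, Sox9, Sox11, Sox12 and Sox13, were chosen by their symbols, with earlier results of these data known. All 10 were found among the 16803 genes of the deposited expression table. With Sox7, Sox8, Sox10, Sox14, Sox15, Sox21 and Sry, that table held 17 genes of the family. The RNA came from NE4C cells, a mouse line of neural stem cells derived from the brain vesicles of embryos lacking p53. Total RNA was sequenced on the BGISEQ-500 platform in 1 library of normally cultured cells (control) and 1 library of cells treated with HTL, homocysteine thiolactone, the reactive cyclic form of homocysteine. Both cultures were grown in Eagle MEM on poly-L-lysine, and the dose and duration of the treatment for the sequenced culture are not given in the sources used here. The comparison of the libraries asks which transcripts differ in amount after HTL treatment. Since 1 line was used and each condition had 1 library, the differences below could not be checked on replicates, and every test compares the reads of these 2 libraries, not the conditions.

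SOX proteins bend DNA at a short core sequence and act mostly together with a partner factor, such as a POU domain protein. The members of group B1, SOX1, SOX2 and SOX3, keep neural progenitors from differentiating, and SOX2 also works with OCT4 (Pou5f1) in pluripotent cells. The group C members SOX4, SOX11 and SOX12 are activators known from young neurons, whereas the group D members SOX5, SOX6 and SOX13 lack a transactivation domain of their own, and SOX9 (group E) is known for cartilage, neural crest and the switch to gliogenesis.

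The groups can be read in the coding sequence. Over a stretch of 237 coding bases of the HMG box that 9 of the members share, the coding sequences in the annotation of the NCBIM37 build were 86.5% identical between Sox2 and Sox3, 83.1% to 88.6% within group C and 79.7% to 83.1% within group D. Between groups the identity was 65.4% to 67.9% for B1 and C, 58.2% to 62.4% for B1 and D, and 56.5% to 62.9% for C and D. A run of 60 bases from that stretch (coding bases 124 to 183 in Sox2) is printed 5′ to 3′ to show which members are near copies at the level of the reads, with a capital at each base that differs from Sox2:
Sox2: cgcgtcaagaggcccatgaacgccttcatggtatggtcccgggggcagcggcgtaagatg
Sox3: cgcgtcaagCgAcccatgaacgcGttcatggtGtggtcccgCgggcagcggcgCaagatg
Sox4: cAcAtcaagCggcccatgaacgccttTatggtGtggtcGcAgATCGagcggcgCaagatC
Sox11: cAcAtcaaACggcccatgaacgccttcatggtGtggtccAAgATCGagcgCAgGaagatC
Sox12: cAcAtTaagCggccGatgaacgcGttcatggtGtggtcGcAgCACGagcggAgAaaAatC
Sox9: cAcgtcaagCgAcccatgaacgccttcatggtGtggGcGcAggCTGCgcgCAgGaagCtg
Sox5: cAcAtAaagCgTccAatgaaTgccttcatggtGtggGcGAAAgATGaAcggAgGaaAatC
Sox6: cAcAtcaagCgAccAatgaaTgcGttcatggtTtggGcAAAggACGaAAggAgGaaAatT
Sox13: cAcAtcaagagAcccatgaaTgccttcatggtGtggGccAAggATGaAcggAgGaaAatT
In these 60 bases Sox3 differed from Sox2 at 6 bases, the group C genes at 13 to 17, Sox9 at 15 and the group D genes at 16 to 21. The longest coding run that members had in common was 48 bases, between Sox4 and Sox11, followed by 33 bases between Sox4 and Sox12 and 32 bases between Sox2 and Sox3. The estimated reads of Sox4 and Sox11 in the control library were fractional (1267.06 and 923.94), as were those of Sox5 in both libraries (19.58 and 28.25), whereas those of the other 7 members were whole numbers in both libraries.

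The control library held 10350668 estimated reads and the HTL treatment library 9102073. The test covered 13442 genes, those to which both libraries together gave 10 reads or more, and all 10 members were among them. For a call, the adjusted p had to be 0.001 or less and the log2 ratio 1 or more in either direction. By this rule 7.98% of the genes tested were called lower with HTL treatment and 2.81% higher. By the fold alone, 12.2% were lower and 4.72% higher. Over the genes tested, the log2 ratio had a median of −0.14. Scaling by TMM factors in place of library totals raised every ratio by 0.13 and gave 552 genes called higher and 800 lower, against 378 and 1072 with library totals. The neural stem cell label was checked on 7 markers, which besides Sox2 were Nes (25.1 and 24.1 FPKM in control and HTL treatment), Msi1 (38.7 and 39.5), Vim (78.5 and 38.8), Prom1 (11.9 and 18.3), Pax6 (1.76 and 1.94) and Fabp7, with 2 reads in each library. They summed to 191 and 135 FPKM, and of 6 tested, Sox2 and Vim were called lower and none higher, with a median log2 ratio of −0.013. Pou5f1, a marker of pluripotent cells, stood at 1870 and 2114 FPKM.

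Of the 10 Sox genes, 5 were called lower with HTL treatment, against 7.98% of all genes tested, and none was called higher, against 2.81%. The 5 were Sox1, Sox2 and Sox3 of group B1 and Sox4 and Sox12 of group C. The fold alone picked the same numbers, 5 lower and 0 higher. If replicates were assumed to vary with a coefficient of variation of 0.2, the exact test of edgeR called 0 of the 10 lower, with an adjusted p of 0.02 for Sox2 and 0.0394 for Sox4. The median log2 ratio over the members was −1.06 beside −0.14 over all genes tested, with 7 members below 0 and 3 above. The members did not move as one: all 6 genes of groups B1 and C had ratios between −1.78 and −0.90, all 3 genes of group D had ratios between 0.36 and 0.66, and Sox9 lay at −0.20. In bulk RNA, fewer cells that express a gene and less RNA per cell cannot be told apart.

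**Figure D1:**
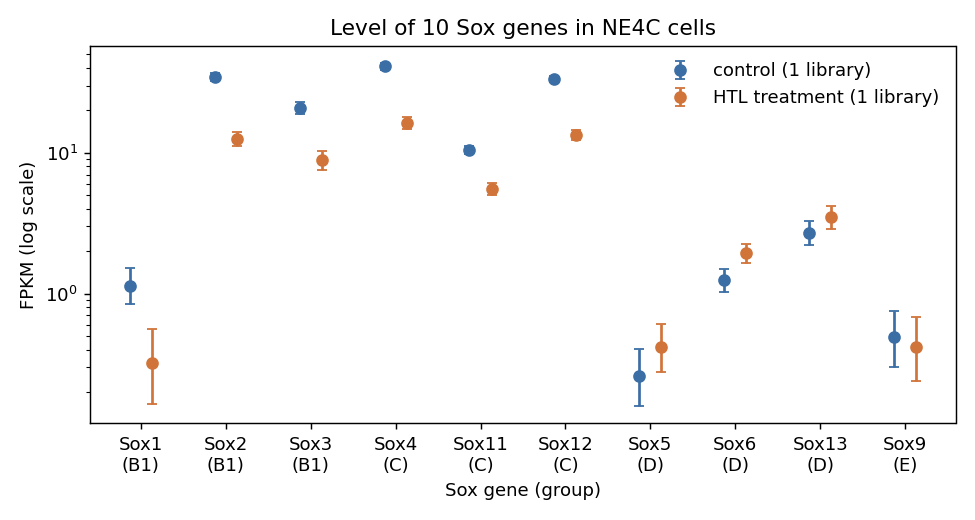
Level of each of the 10 Sox genes in FPKM (fragments per kilobase of transcript per 1000000 reads; log axis) in the control library (blue) and the HTL treatment library (orange), with the group in parentheses; bars are exact 95% Poisson intervals and cover counting error only. Sox2, Sox3, Sox4, Sox11 and Sox12 stood between 10.4 and 41.0 FPKM in control and between 5.56 and 16.2 FPKM with HTL treatment, and none of Sox5, Sox6 and Sox13, whose points are slightly higher in orange, was called.

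Sox2, a factor of neural stem cells and of pluripotent cells, lies on chromosome 3 (chr3:34548927-34551383, plus strand, NCBIM37). It had 894 reads in control and 285 with HTL treatment. These amounted to 34.7 and 12.6 FPKM. The log2 ratio was −1.46 with a 95% interval of −1.66 to −1.27 (exact binomial test, Benjamini-Hochberg adjusted p = 3.95e-56), so that the level in the HTL treatment library was 36.3% of that in control. Of all genes tested, 5.41% had a lower ratio.

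Sox3, the X-linked member of the group (chrX:58144545-58146605, minus strand), had 448 and 169 reads, or 20.8 and 8.88 FPKM. Its log2 ratio was −1.22 (−1.48 to −0.96; exact binomial test, adjusted p = 7.63e-22). Sox1 had few reads, 48 in control and 12 with HTL treatment, equal to 1.14 and 0.32 FPKM. The ratio of Sox1 was the lowest among the members but also had a wide interval, −1.78 (−2.86 to −0.88; exact binomial test, adjusted p = 7.05e-05). The call of Sox1 was lost by the ratio of FPKM + 1, which gave −0.70, and in the exact test of edgeR with an assumed coefficient of variation of 0.1 (adjusted p = 0.00189). All 3 genes of group B1 were thus called lower, and their intervals overlapped each other. Summed over the group, the reads numbered 1390 and 466, a log2 ratio of −1.39 (−1.55 to −1.24).

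Group C had the most reads and the highest summed FPKM of the groups. Sox4, a factor of young neurons and progenitors (chr13:29040788-29045582, minus strand), had 1267 and 442 reads, or 41.0 and 16.2 FPKM. Its log2 ratio was −1.33 (−1.49 to −1.18; exact binomial test, adjusted p = 4.09e-69). Sox12 (chr2:152219347-152223782, minus strand) had the most reads of all members, 1553 and 545, or 33.5 and 13.4 FPKM. The log2 ratio of Sox12 was −1.32 (−1.47 to −1.18; exact binomial test, adjusted p = 1.13e-83). Sox4 and Sox12 were therefore at 39.7% and 39.9% of the control level.

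Sox11, which acts beside SOX4 in neuronal differentiation, was also lower but did not reach the fold of the rule. It lies on chromosome 12 (chr12:28025562-28027574, minus strand) and had 924 and 434 reads, or 10.4 and 5.56 FPKM. Its log2 ratio was −0.90 (−1.07 to −0.74; exact binomial test, adjusted p = 1.88e-27), which left 53.4% of the control level. The interval of Sox11 did not overlap those of Sox4 and Sox12, so that Sox4 stood at 3.94 times the FPKM of Sox11 in control and at 2.92 times with HTL treatment, whereas the FPKM of Sox4 was 1.22 times that of Sox12 in both libraries. The table computed the FPKM of Sox11 with a transcript of 8451 bases, while the transcript in the NCBIM37 annotation spans 2013 bases. Summed over group C, the reads numbered 3744 and 1421, a log2 ratio of −1.21 (−1.30 to −1.12).

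In group D the ratios pointed upwards, and none was called. Sox6, known from muscle, cartilage and oligodendrocyte development (chr7:122614858-123182258, minus strand), had 112 reads in control and 155 with HTL treatment, or 1.24 and 1.93 FPKM. The log2 ratio was 0.65 (0.29 to 1.02; exact binomial test, adjusted p = 0.000744), past the cutoff for p and short of that for the fold. Sox13 (chr1:135278880-135320954, minus strand) had 100 and 113 reads, or 2.70 and 3.47 FPKM, with a log2 ratio of 0.36 (−0.039 to 0.76; exact binomial test, adjusted p = 0.118). Sox5, the partner of SOX6 in cartilage (chr6:143776945-144730497, minus strand), had 20 and 28 reads, or 0.26 and 0.42 FPKM. At this depth the interval of Sox5, −0.21 to 1.58 around a log2 ratio of 0.66, held both no difference and a rise beyond the cutoff (exact binomial test, adjusted p = 0.171). The summed reads of the group, 232 and 296, gave a log2 ratio of 0.54 (0.28 to 0.79), an interval that did not meet those of groups B1 and C.

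Sox9 (chr11:112643538-112649074, plus strand), an activator of cartilage genes and of gliogenesis, was close to the limit of the data. It had 21 and 16 reads, equal to 0.49 and 0.42 FPKM. A log2 ratio of −0.20 (−1.24 to 0.80; exact binomial test, adjusted p = 0.811) had an interval from below the cutoff to well above 0, so that a difference was not detectable at this depth.

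**Figure D2:**
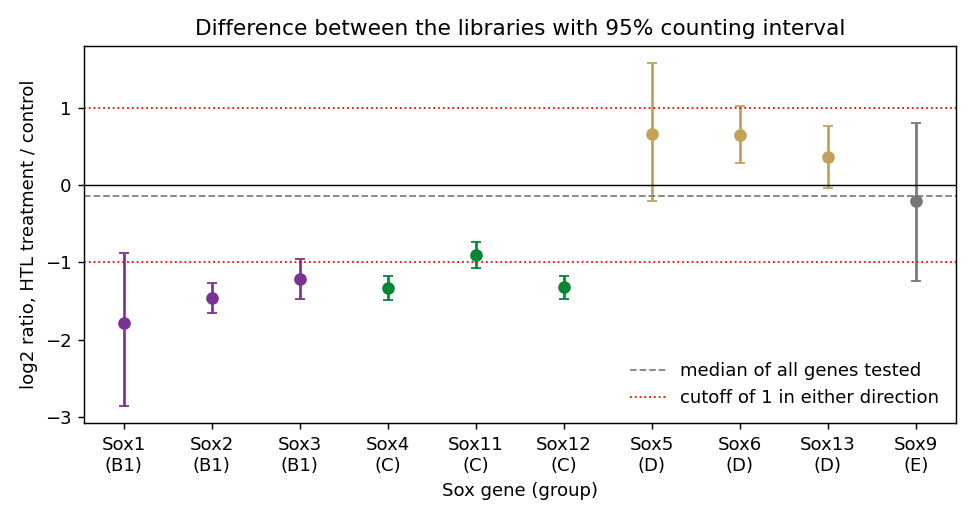
Log2 ratio of HTL treatment to control for each of the 10 Sox genes, coloured by group, with exact 95% intervals that cover counting error only; the dashed line is the median of all genes tested (−0.14) and the dotted lines mark the cutoff of 1. Sox1, Sox2, Sox3, Sox4 and Sox12 lie below −1, Sox11 at −0.90 just above it, and Sox5, Sox6 and Sox13 lie above 0.

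The 10 genes together gave 5387 reads in control and 2199 with HTL treatment, which is 520 and 242 CPM (reads per 1000000) and a summed FPKM of 146 and 63.2. Their make-up shifted in step with the ratios. Group D supplied 4.31% of the Sox reads in control (exact 95% interval 3.78 to 4.88) and 13.5% with HTL treatment (12.1 to 15). Group B1 supplied 25.8% (24.6 to 27.0) and 21.2% (19.5 to 23.0), and group C 69.5% (68.3 to 70.7) and 64.6% (62.6 to 66.6). The intervals of each of these groups did not overlap between the libraries. Counted per length, as shares of the summed FPKM, group B1 went from 38.7% to 34.5%, group C from 58.1% to 55.7% and group D from 2.87% to 9.21%. The group C genes thus made up the larger part of the Sox transcripts in both libraries.

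**Figure D3:**
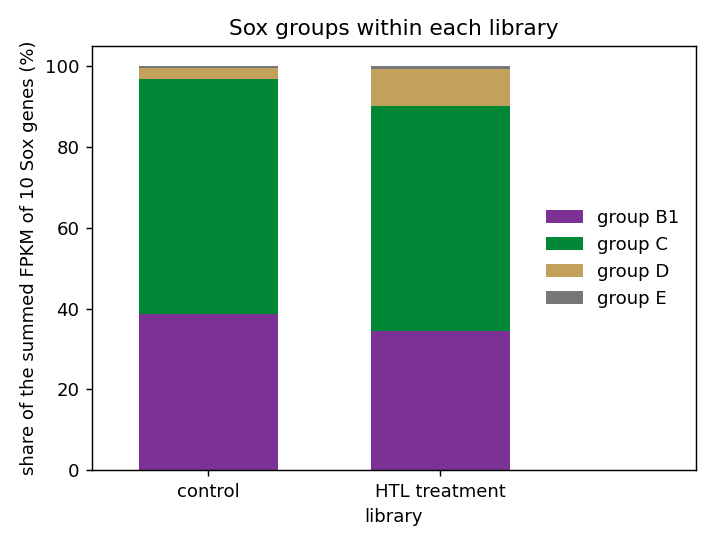
Share of the summed FPKM of the 10 Sox genes, in percent, that came from each group in the control and the HTL treatment library (1 library each). Groups B1 and C together fill most of both bars, and the part of group D is 2.87% in control and 9.21% with HTL treatment.

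In control, the order of the levels in FPKM was Sox4, Sox2, Sox12, Sox3, Sox11, Sox13, Sox6, Sox1, Sox9 and Sox5. Neighbours whose exact Poisson intervals overlapped were Sox2 and Sox12, Sox6 and Sox1, and Sox9 and Sox5. With HTL treatment the order was Sox4, Sox12, Sox2, Sox3, Sox11, Sox13, Sox6, Sox5, Sox9 and Sox1, and the intervals overlapped between Sox12 and Sox2, Sox5 and Sox9, and Sox9 and Sox1. The first 7 places thus held the same genes in both libraries, and Sox1 went from the eighth place to the last. The genes whose log2(FPKM + 1) values lay nearest to those of Sox2 over the 2 libraries were Sox12, at a distance of 0.0952, the polycomb gene Cbx7 (31.1 and 13.1 FPKM; distance 0.164) and Lifr, the receptor of leukaemia inhibitory factor (38.6 and 13.5 FPKM; distance 0.178). With only 2 libraries, likeness means only that both levels were similar.

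Among the other Sox genes, 2 had enough reads to be tested. Sox14 had 18 reads in control and 1 with HTL treatment (0.84 and 0.05 FPKM) and was called lower, with a log2 ratio of −3.47 and an interval of −9.37 to −1.32 (exact binomial test, adjusted p = 0.000342). This call was lost by the ratio of FPKM + 1 and in the exact test of edgeR with an assumed coefficient of variation of 0.1. Sox8, the group E relative of Sox9, had 8 and 18 reads (0.26 and 0.65 FPKM), a log2 ratio of 1.30 (0.082 to 2.77; exact binomial test, adjusted p = 0.0514). Sox15 had 5 and 2 reads, Sox7 2 and 0, Sox10 0 and 2, and Sox21 and Sry 0 and 1 each, all too few for a fold. A count of 3 reads, the limit that a count of 0 allows, equals 0.29 CPM in control and 0.33 with HTL treatment. The RNA Sox2ot, whose gene surrounds Sox2, had 22 and 9 reads, with a log2 ratio of −1.07 (−2.41 to 0.072; exact binomial test, adjusted p = 0.0823).

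Of 13 listed partner and cofactor genes of SOX proteins, 12 were tested, 1 was called lower and none higher, with a median log2 ratio of −0.44. Beside 7.98% of all genes called lower and 2.81% higher, this is near the background. The called gene was Lef1, an HMG-box factor of Wnt signalling, with 323 and 85 reads (9.67 and 2.93 FPKM) and a log2 ratio of −1.73 (−2.10 to −1.39; exact binomial test, adjusted p = 1.93e-26). Pou5f1, which binds DNA together with SOX2, had the highest level of the list and a log2 ratio of 0.21 (0.19 to 0.24). There were 53.8 FPKM of Pou5f1 for each FPKM of Sox2 in control and 168 with HTL treatment. Among the POU partners of neural progenitors, chosen here after their values were seen, Pou3f1 had 160 and 77 reads, with a log2 ratio of −0.87 (−1.28 to −0.47), and was not called. Pou3f3 had 18 and 6 reads (−1.33, interval −3.02 to −0.0046; exact binomial test, adjusted p = 0.068) and Pou3f4 13 and 3 reads (−1.78, interval −4.38 to −0.066; adjusted p = 0.0457 in the exact test), both past the fold and short of the cutoff for p. Pou3f2, with 5 and 2 reads, was not tested.

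The genes known as targets of group B1 or as progenitor genes went in both directions. Of 16 listed, 11 were tested, 2 were called higher and 2 lower, with a median log2 ratio of 0.032, beside 7.98% lower and 2.81% higher over all genes. Egfr, a growth factor receptor of neural progenitors, had 69 and 145 reads (1.11 and 2.63 FPKM), a log2 ratio of 1.25 (0.83 to 1.69; exact binomial test, adjusted p = 4.68e-09). Notch1, the receptor that keeps progenitors undifferentiated and the other gene called higher, had 124 and 231 reads, with a log2 ratio of 1.08 (0.76 to 1.41; exact binomial test, adjusted p = 3.44e-11). On the lower side, Lhx2, a homeobox gene of the forebrain and eye field, had 76 and 25 reads (3.21 and 1.19 FPKM) and a log2 ratio of −1.40 (−2.13 to −0.75; exact binomial test, adjusted p = 2.67e-05). Vim, the intermediate filament of progenitors and the highest of the list, had 1487 and 648 reads, with a log2 ratio of −1.01 (−1.15 to −0.88; exact binomial test, adjusted p = 1.39e-52). With each of 3 other scalings Vim was no longer past the fold. By the ratio of FPKM + 1, which understates the change of low genes, Egfr, Notch1, Lhx2 and Vim all lost their calls.

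Of 12 genes known as group C targets or early neuronal genes, 8 were tested, 1 was called lower and none higher, with a median log2 ratio of −0.27. With 7.98% lower and 2.81% higher over all genes, this count is no result about the list. The called gene was Dcx, a microtubule protein of migrating neurons, with 88 and 29 reads (0.93 and 0.34 FPKM) and a log2 ratio of −1.40 (−2.07 to −0.80; exact binomial test, adjusted p = 5.51e-06), a call that was also lost by the ratio of FPKM + 1. Stmn1, a tubulin-binding protein, had the highest level, 389 and 533 FPKM, with a log2 ratio of 0.46 (0.40 to 0.52). Of 12 cartilage and gliogenic genes linked to SOX9 and group D, 9 were tested and none was called by the exact binomial test, with a median log2 ratio of −0.14, which at the same background shares is no result about the list either. The highest of them, the glutamate transporter gene Slc1a3, stood at 18.2 and 18.1 FPKM.

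**Figure D4:**
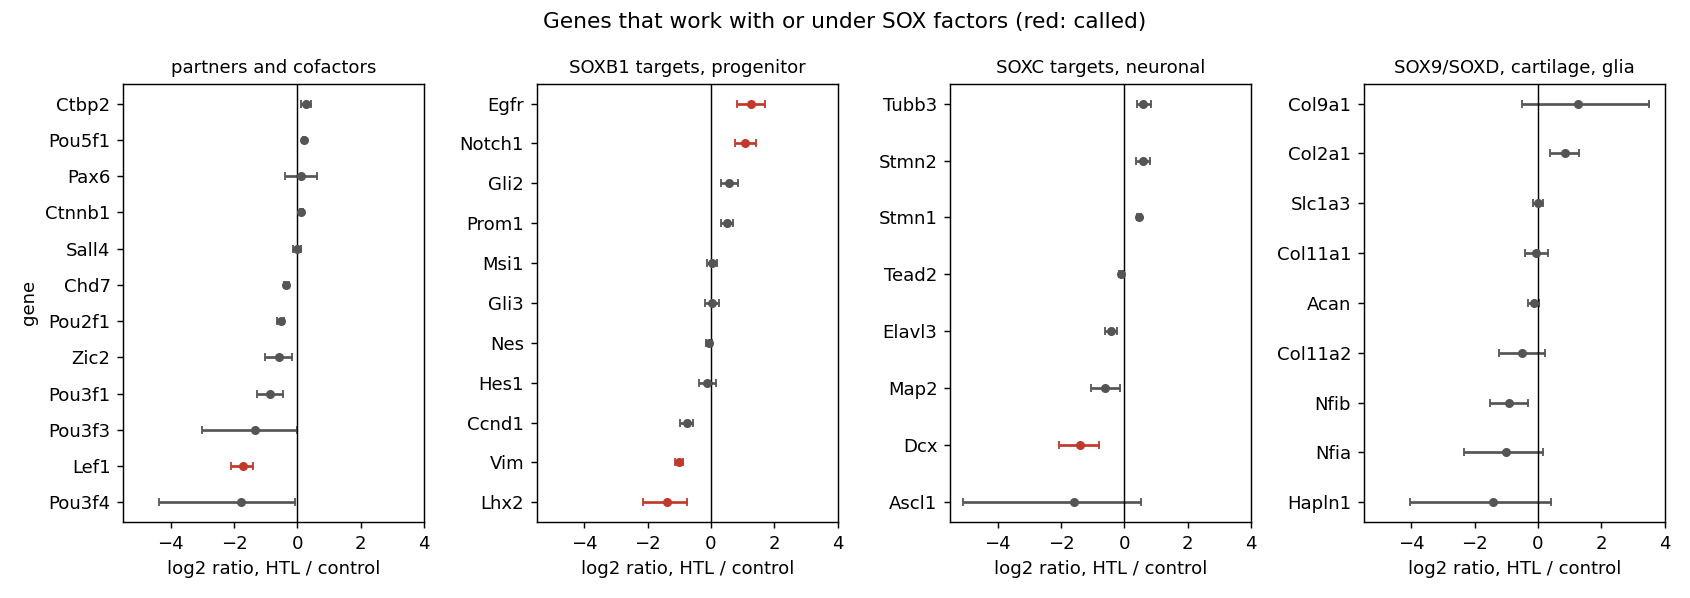
Log2 ratio of HTL treatment to control for the tested genes of 4 lists (partners and cofactors, SOXB1 targets and progenitor genes, SOXC targets and early neuronal genes, and cartilage and gliogenic genes of SOX9 and SOXD), with exact 95% counting intervals. The 6 genes called are red: Lef1, Vim, Lhx2 and Dcx lie at or below −1.01, and Egfr and Notch1 at or above 1.08.

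Markers of other cell types were compared in the same way, and the called genes among them, named after their values were seen, lay on both sides. The shares over all genes, 7.98% called lower and 2.81% higher, stand beside each of these counts, and with 3 to 6 genes tested per list no count is read as a result about its list. Of 4 neural crest markers tested, 3 had ratios above 0, the median was 0.38, and 1 gene was called in each direction. Foxd3, a factor of neural crest and pluripotent cells, was called lower (33.0 and 7.93 FPKM, log2 ratio −2.05, interval −2.30 to −1.82), and Ngfr, a neurotrophin receptor, higher (2.05 and 4.38 FPKM, 1.09, interval 0.67 to 1.52). The summed level of this list, 38.8 and 16.9 FPKM, was lower with HTL treatment through Foxd3 alone. Of 5 pluripotent cell markers tested, 1 was called in each direction, with a median of 0.21. Tdgf1, a co-receptor of Nodal, was called lower (197 and 57.3 FPKM, −1.78, interval −1.88 to −1.68), and Klf4 higher (0.60 and 1.82 FPKM, 1.58, interval 0.82 to 2.45), whereas Nanog (23.8 and 14.8 FPKM, −0.68) and Esrrb (0.64 and 1.39 FPKM, 1.12) were not called. The sum of this list, 2093 and 2190 FPKM, was mostly Pou5f1. Of 6 mesenchyme and endothelium markers, Pdgfrb was called lower (1.98 and 0.92 FPKM, −1.09, interval −1.63 to −0.59) and none higher, with a median of −0.40. With TMM scaling, which raised every ratio by 0.13, Pdgfrb was short of the fold. By the ratio of FPKM + 1, Pdgfrb, Klf4 and Ngfr were short of it, whereas Foxd3 and Tdgf1 stayed past it. The mesenchyme and endothelium markers summed to 16.3 and 15.3 FPKM, most of it Twist1 (12.65 and 13.03 FPKM). Neuron markers summed to 3.80 and 3.31 FPKM, with a median log2 ratio of −0.11, and of the 3 tested none was called by the exact binomial test. Among neuron markers, Rbfox3 had 34 and 38 reads, Syt1 60 and 49, Snap25 35 and 15, Gad1 2 and 1, and Slc17a6 1 and 0. Among glia markers, Mbp had 182 and 186 reads (3.61 and 4.19 FPKM), Pdgfra 45 and 27, and Gfap 2 and 0. The part of these markers in the Sox ratios was not tested.

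The members differ in gene structure along the same groups. In the NCBIM37 annotation, which holds 9 of the 10 members, Sox2, Sox3, Sox4, Sox9, Sox11 and Sox12 span 2013 to 5537 bases with at most 3 exons in any coding transcript. The 2013 bases are those of Sox11, whose FPKM was computed with a longer transcript of 8451 bases. Sox13, Sox6 and Sox5 span 42075, 567401 and 953553 bases, with up to 14, 17 and 15 exons. Over the tested genes that matched the annotation, those with at most 3 exons had a median log2 ratio of −0.16 with 10.2% called lower and 4.9% higher, and those with 4 or more exons a median of −0.12 with 7.18% called lower and 2.61% higher. Transcript length also moved with the ratio over all genes: with the tested genes in 10 bins of equal size by length, from the shortest to the longest bin, the median went from 0.14 to −0.38 and the share called lower from 2.45% to 15.2%. Against the median of their own length bin, the 5 called Sox genes lay between −1.57 and −1.11, Sox11 lay at −0.53, and Sox5, Sox6 and Sox13 at 1.03, 1.03 and 0.53.

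**Figure D5:**
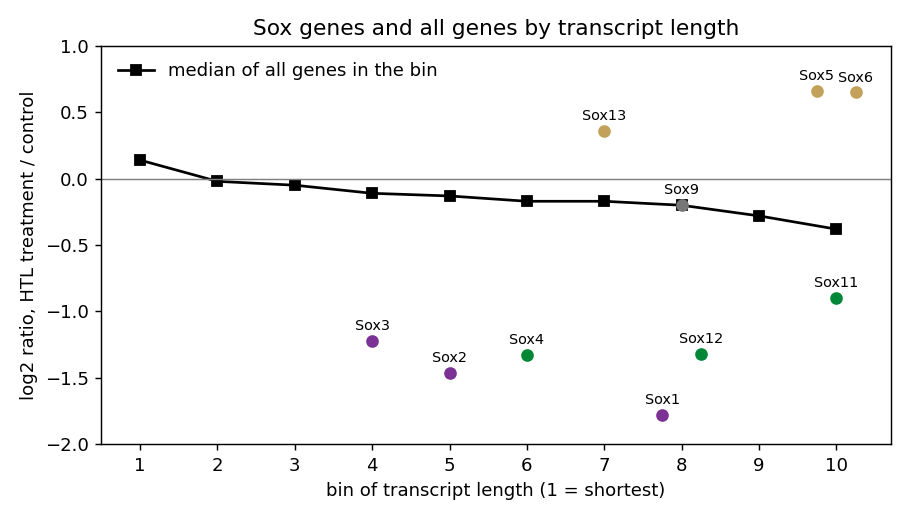
Log2 ratio of HTL treatment to control (vertical axis) by bin of transcript length (horizontal axis, 10 bins of equal size, 1 is the shortest), with the median of all genes in each bin as black squares and the 10 Sox genes as coloured points (purple B1, green C, brown D, grey E), shifted sideways where they would overlap. The medians go from 0.14 to −0.38, while Sox1, Sox2, Sox3, Sox4 and Sox12 lie more than 1 below the median of their bin and Sox9 lies on it.

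The promoters of the family, here 250 bases before and 50 after a start in RefSeq on GRCm38.p6, were matched for 8 of the 10 members, all but Sox3 and Sox9, in 13 windows. Some of them are shown because Sox2, Sox4 and Sox12 were lower together while Sox13 was not. Since those printed were picked by their ratios, a contrast between them is no result about the groups. The part of promoter letters in the ratios was not tested. Windows of Sox2 (chr3:34649745-34650044, plus strand), Sox12 (chr2:152397997-152398296, minus strand), Sox4 (chr13:28953650-28953949, minus strand) and Sox13 (chr1:133424163-133424462, minus strand) are printed 5′ to 3′ along the gene, with capitals for the letters CCAAT and GGGCGG, searched on both strands:
Sox2: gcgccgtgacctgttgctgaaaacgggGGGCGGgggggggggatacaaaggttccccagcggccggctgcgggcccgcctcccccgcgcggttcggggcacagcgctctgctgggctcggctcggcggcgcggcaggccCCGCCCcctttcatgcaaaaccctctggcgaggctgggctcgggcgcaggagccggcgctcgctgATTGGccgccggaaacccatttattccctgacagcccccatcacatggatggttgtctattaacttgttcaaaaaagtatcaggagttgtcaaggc
Sox12: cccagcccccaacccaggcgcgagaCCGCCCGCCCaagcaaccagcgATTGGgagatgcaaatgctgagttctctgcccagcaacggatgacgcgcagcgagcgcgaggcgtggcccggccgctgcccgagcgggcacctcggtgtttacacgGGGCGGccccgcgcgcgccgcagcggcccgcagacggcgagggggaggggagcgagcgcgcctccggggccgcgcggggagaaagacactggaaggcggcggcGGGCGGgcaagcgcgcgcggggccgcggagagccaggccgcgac
Sox4: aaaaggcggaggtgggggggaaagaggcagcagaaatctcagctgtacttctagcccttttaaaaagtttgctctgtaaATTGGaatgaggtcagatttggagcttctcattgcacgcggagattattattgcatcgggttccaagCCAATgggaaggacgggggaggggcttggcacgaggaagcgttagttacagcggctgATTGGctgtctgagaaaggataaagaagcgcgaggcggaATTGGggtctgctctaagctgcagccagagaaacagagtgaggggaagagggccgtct
Sox13: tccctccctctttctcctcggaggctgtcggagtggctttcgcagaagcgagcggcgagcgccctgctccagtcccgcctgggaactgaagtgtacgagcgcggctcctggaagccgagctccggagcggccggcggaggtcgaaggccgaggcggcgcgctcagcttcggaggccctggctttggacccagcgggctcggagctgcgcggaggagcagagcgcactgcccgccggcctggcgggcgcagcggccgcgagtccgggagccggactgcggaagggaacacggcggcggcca
The Sox2 window holds 1 CCAAT and 2 GGGCGG, that of Sox12 1 and 4, that of Sox4 4 and 0, and that of Sox13 none of either. Of all 32851 promoters of the table, 37.4% held CCAAT and 35.7% GGGCGG. Sox1 and Sox11, also lower with HTL treatment, each held 1 CCAAT, with 3 and 2 GGGCGG. Counted by gene, 6 of the 8 held CCAAT, namely Sox1, Sox2, Sox4, Sox11, Sox12 and Sox6. The 37.4% is a share of single promoters, and no share by gene was computed. The count by gene, in which Sox6 has 6 windows, is therefore not comparable with it. The Sox5 window held neither motif, and of the 6 windows of Sox6, 3 held CCAAT and another held 4 GGGCGG. Of 3 further motifs searched on both strands, the SOX core ACAATG (12.6% of all promoters) was in the Sox5 window and in windows of Sox6, TATAAA (13.6%) in windows of Sox6, and the E-box CACGTG (7.15%) in none of the 13. The GC content was 52.0% to 76.7% in the 5 windows of groups B1 and C and 73.3% in that of Sox13. It was 39.7% in the Sox5 window and 36.7% to 63.3% in those of Sox6, beside a median of 52.7% over all promoters. These matches are letters in a window and were not tested as binding sites.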

How the data were processed

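NE4C total RNA was sequenced in 1 control and 1 HTL treatment library (groups from the sample titles). The authors deposited 1 table with estimated counts per gene from RSEM, FPKM, which the authors scaled by transcript length and depth, transcript length, and a log2 ratio, p-value and FDR. The deposited log2 ratio, p-value and FDR are the authors' own comparison and were not used. The submitters' processing notes name the mm9 build (NCBIM37). The mapper, software versions, annotation and use of strand are not given in the sources used here.

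Estimated counts, of which 21.8% were fractional in control and 20.2% in HTL treatment, were rounded to whole numbers, leaving 10350665 and 9102076 reads. Genes to which both libraries together gave 10 reads or more (13442, with 3361 left out) were tested with a two-sided exact conditional binomial test against the library totals and Benjamini-Hochberg adjustment over all of them. The study's methods gave the cutoffs, an adjusted p of 0.001 and a log2 ratio of 1 in either direction. A log2 ratio had 0.5 read, scaled to the totals, added on both sides. Intervals were exact (Clopper-Pearson for ratios and shares, Poisson for levels) at 95%. Without molecular identifiers, reads cannot be counted as separate molecules, and tests, intervals and the limit of 3 reads cover counting error only. Without replicates neither DESeq2 nor the quasi-likelihood test of edgeR could be fitted, so edgeR 4.0.16 and DESeq2 1.42.0 gave scaling factors and, with assumed variation, an exact test in R 4.3.3. The main test ran in Python 3.11.15 with SciPy 1.17.1. On simulated data for all 16803 genes, the test called 200 of 200 genes changed 4-fold and 0 unchanged genes.

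The members and lists were chosen with earlier results of these data known. Named were all members and other Sox genes in the table, per further list the called gene with the largest rise and that with the largest fall and the one with the highest FPKM, and the 3 genes nearest to Sox2. Notch1, the POU3F genes and the single marker genes were named after their values had been seen. Marker lists were otherwise given by counts, medians and summed FPKM, except that of glia, of which part is not reported here. The comparisons by exon number and gene length, the letters searched in promoters and the group sums were descriptions without a test. Gene positions and coding sequences came from the GENCODE annotation of NCBIM37, and promoters from RefSeq on GRCm38.p6, which was not mixed with NCBIM37 coordinates.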

Additional observations from a re-analysis of the deposited data

How the results depend on the processing

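No paired analysis was possible because there was 1 library per condition, which also means that none could be left out. Adding the reads of overlapping genes was not run, because the genes that overlap Sox4 (Gm17419, on the opposite strand) and Sox5 (4933415D12Rik, on the opposite strand) are no rows of the table used. The count of Sox genes called stayed at 5 under the TMM, upper-quartile and median-of-ratios scalings, without the filter, with 5 reads added and at a cutoff of 0.05 for the adjusted p. It was 4, without Sox1, with a mean of at least 50 reads and by the ratio of FPKM + 1. It was also 4, without Sox1, in the exact test of edgeR with an assumed coefficient of variation of 0.1. After centring on the length bin it was 6, with Sox6 higher, beside 1296 calls over the 13442 genes tested. By adjusted p alone it was 7, with Sox11 lower and Sox6 higher, beside 5195 calls over the same 13442 genes. It went to 0 at a log2 cutoff of 2 and with a coefficient of 0.2 or 0.4. With 0.2, the adjusted p was 0.0673 for Sox1, 0.02 for Sox2, 0.0834 for Sox3, 0.0394 for Sox4 and 0.0395 for Sox12, and with 0.4 it was 1 for each. With 0.1, that of Sox1 was 0.00189. The other Sox gene called, Sox14, was not called (0) with a mean of at least 50 reads, by the ratio of FPKM + 1, or with a coefficient of 0.1, 0.2 or 0.4. Over all genes, the 1450 calls became 816 by the ratio of FPKM + 1, 5195 by adjusted p alone, 287 at a log2 cutoff of 2, 120 with a coefficient of 0.2 and 6 with 0.4. The 6 calls in the partner and target lists became 1 (Lef1), 19, 0, 0 and 0 in the same order. Calls higher made up 26.1% of all calls, and 40.8%, 41.5% and 36.7% with TMM, median-of-ratios and then upper-quartile factors. Centred on the length bin, Sox9 moved to 0.00044 and Sox6 to 1.03, which was called. By the ratio of FPKM + 1, Sox1 moved to −0.70 and was not called. Of 137 alternatives for single Sox genes, 116 left the call and the direction as they were, 17 lost a call, 3 gained one and 1 turned the direction. Settings that changed only a cutoff or the test kept the main ratio, so the direction could not turn there. A gene that was not called could not lose a call under a stricter rule, and all 17 losses were of the 5 called genes. The count of 116 is therefore no measure of how firm the calls are. Depth limits Sox1, Sox5 and Sox9, with at most 60 reads each.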

Other observations

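Gene span, from the annotated start to the end, also moved with the ratio over all genes. With the tested genes in 10 bins of equal size, the median log2 ratio went from −0.026 in the bin with the shortest spans to −0.30 in the bin with the longest, and the share called lower from 7.2% to 10.8% and that called higher from 3.9% to 1.53%. Sox2, Sox3, Sox11 and Sox12 were in the bin of the shortest spans with ratios from −1.46 to −0.90, while Sox5 and Sox6 were in that of the longest with ratios of 0.66 and 0.65, so the order of these members ran opposite to that of the medians. The place of Sox11 rests on its annotated 2013 bases, fewer than the 8451 of the transcript used for its FPKM. The comparison was chosen after the values had been seen and has no test. Genes whose coding transcripts have 1 exon, Sox3 and Sox11 among them, had a median of −0.59 over 207 genes, with 15.5% called lower and 1.93% higher. The part of gene structure in the Sox ratios was not tested.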
